A study of Mus musculus with 6 samples.

Results

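Haemoglobin transcripts and Alas2 were followed in hippocampal RNA of aged male C57BL/6 mice, 14 months old, that had received either dihydrotestosterone (DHT, an androgen) under the skin or the corn oil used as its vehicle, once a day for 14 days. Each treatment was represented by 3 libraries, and no other treatment or allele is named for either group. The labels do not say whether a library is 1 animal, and they do not say whether the vessels were flushed before dissection. The 5 genes are the alpha-globin genes Hba-a1 and Hba-a2, the beta-globin genes Hbb-bs and Hbb-bt, and Alas2. They were chosen by name, with their values in the DHT and oil libraries already known, so those values are described below without a test. Of the 32348 gene identifiers in the deposited tables, 4 belonged to them, with 18 of 315379 listed transcript events. No event carried the identifier of Hba-a1. The submitters' notes name mm9, but 16 of the 18 events overlapped the GRCm38 bounds of these genes, so positions are given as GRCm38. Among them, events within Hba-a1 carried the identifier of Hba-a2.

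Haemoglobin is built from alpha-type and beta-type chains, each holding a haem group that binds oxygen. ALAS2 is the erythroid form of the enzyme that starts haem synthesis in mitochondria, while its relative ALAS1 does so in other cells. Globin and Alas2 mRNA are made in nucleated red cell precursors and persist in reticulocytes, the youngest cells in the blood. In brain tissue they can be carried in by blood within vessels, and low haemoglobin expression has also been described in some neurons and glia. Androgens are known to stimulate red cell production. In bulk RNA, fewer cells of a type and less RNA per cell cannot be told apart.

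The promoters are shown because the 2 alpha-globin genes are near-identical copies and because the values of these genes moved together across libraries. Each sequence is the 150 bases before the RefSeq start (GRCm38.p6, the strand of the gene), with short motifs in capitals wherever either strand matched. The first motif searched was TATAA, the core of the TATA box that places the start of many genes. The second was CCAAT, the box of that name, bound by the factor NF-Y. The third was CACCC, the core of sites for KLF1 and related factors of red cell precursors. The last was GATAA, the core of sites for GATA1 and its relatives.
Hba-a1, chr11:32283522-32283671, plus strand: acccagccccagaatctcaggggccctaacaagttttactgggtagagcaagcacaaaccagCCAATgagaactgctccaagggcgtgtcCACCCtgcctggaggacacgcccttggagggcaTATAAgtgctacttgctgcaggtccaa
Hbb-bs, chr7:103827929-103828078, minus strand: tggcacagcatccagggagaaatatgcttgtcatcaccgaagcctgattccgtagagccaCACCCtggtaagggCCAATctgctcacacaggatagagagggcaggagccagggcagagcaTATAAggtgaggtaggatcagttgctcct
Hbb-bt, chr7:103813924-103814073, minus strand: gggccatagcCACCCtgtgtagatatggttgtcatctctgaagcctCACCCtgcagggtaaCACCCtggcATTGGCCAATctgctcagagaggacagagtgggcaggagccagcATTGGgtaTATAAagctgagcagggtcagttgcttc
Alas2, chrX:150547267-150547416, plus strand: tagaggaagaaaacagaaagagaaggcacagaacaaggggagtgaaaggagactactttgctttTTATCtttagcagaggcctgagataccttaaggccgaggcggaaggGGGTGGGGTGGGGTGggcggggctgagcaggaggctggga

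The Hba-a2 promoter is not printed because it shared an unbroken run of 297 of 300 bases with that of Hba-a1, from the RefSeq table of promoters. The beta-globin promoters shared no run longer than 14 bases. Each globin promoter held the TATA-box letters, which lay 27 bases before the start in Hba-a1, 30 in Hba-a2, 29 in Hbb-bs and 28 in Hbb-bt. Of all 32851 promoter windows of the same length, 14.2% held them. The second motif was found in all 4 globin windows, 3 times in that of Hbb-bt, and not in that of Alas2, while 24.5% of all windows held it. The KLF-type motif was found in all 5 windows, once in Hba-a1, Hba-a2 and Hbb-bs and 3 times in Hbb-bt and Alas2, and 37.4% of all windows held it. The GATA-type motif was found in the Alas2 window alone, on the opposite strand, and 13.3% of all windows held it. No motifs overlapped in these windows. A match describes these letters and is not a site of binding.

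The gene value used here was the greater of 2 sums in each library, that of the first-exon events of a gene and that of its last-exon events, in FPKM, which is a level per length of transcript. The authors deposited FPKM for such events and not for genes. All identified genes together summed to 94871 to 96063 FPKM in the DHT libraries against 87148 to 89596 FPKM in the oil libraries (exact permutation test, two-sided, p = 0.1, the smallest p that 3 against 3 can give). The depth implied by the circular RNA lists was 143 to 177 M mapped reads a library. Hippocampal field markers were low, 5 of 9 reaching a mean of 0.5 FPKM, with Prox1, a marker of dentate granule cells, at 1.28, 2.50 and 2.61 FPKM in the DHT libraries against 2.15, 2.79 and 1.66 FPKM in the oil libraries. Neurod6, of pyramidal neurons, was listed at 0 in 5 of the 6 libraries. Of 9 striatal markers 8 had means above 5 FPKM, so the values go against a label of hippocampus alone. Their summed level was 185 to 349 FPKM in the DHT libraries against 266 to 297 FPKM in the oil libraries. Their part in the haemoglobin values was not tested.

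The alpha-globin locus was among the most abundant transcripts of these libraries. It stood at 282, 589 and 238 FPKM in the DHT libraries against 148, 159 and 84.0 FPKM in the oil libraries. All 3 DHT libraries lay above all 3 oil libraries, and DHT library 2 was far above the others. The means were 370 ± 191 FPKM in the DHT libraries against 130 ± 40.6 FPKM in the oil libraries (SD, n = 3 each), a ratio of 2.83, or a difference of 1.44 in mean log2(FPKM + 0.5). Its rank among all identifiers was 5, 2 and 13 in DHT libraries and 31, 25 and 81 in the oil libraries, where rank 1 is the highest level. Of the 11368 genes that averaged 0.5 FPKM or more, 12% had all DHT libraries above all oil libraries, which is the background for such a pattern. It was the 1 of the 4 measured members with this pattern.

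Of the beta-globin genes, Hbb-bs stood at 147, 311 and 53.1 FPKM in the DHT libraries against 71.2, 124 and 66.5 FPKM in the oil libraries. DHT library 3 was the lowest of all 6, so the groups overlapped. The means were 170 ± 131 FPKM in the DHT libraries against 87.2 ± 31.9 FPKM in the oil libraries (SD, n = 3 each), a log2 difference of 0.68. This difference was 0.08 without DHT library 2 and 1.35 without DHT library 3, the lowest and highest values on leaving out 1 library.

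Hbb-bt, the neighbouring beta-globin gene, stood at 81.2, 134 and 52.8 FPKM in the DHT libraries against 38.6, 70.8 and 40.2 FPKM in the oil libraries. Here DHT library 3 lay between the oil libraries. The means were 89.2 ± 41.0 FPKM in the DHT libraries against 49.8 ± 18.1 FPKM in the oil libraries (SD, n = 3 each), a log2 difference of 0.79. Without DHT library 2 it was 0.45.

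Alas2 was present at a much lower level per length, with 4.43, 5.94 and 2.66 FPKM in the DHT libraries against 2.15, 3.61 and 2.04 FPKM in the oil libraries. The library order, from the highest, was DHT 2, DHT 1, oil 2, DHT 3, oil 1 and oil 3. Hbb-bt had the same order except that oil libraries 1 and 3 changed places. The means were 4.34 ± 1.64 FPKM in the DHT libraries against 2.60 ± 0.879 FPKM in the oil libraries (SD, n = 3 each), a log2 difference of 0.62, or 0.38 without DHT library 2. The mean log2 level was higher in DHT libraries for all 4 measured members and for 63.6% of all genes tested, or 51.4% with each library centred on its median, and nothing is read from this because the members were chosen with the contrast known.

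**Figure D1:**
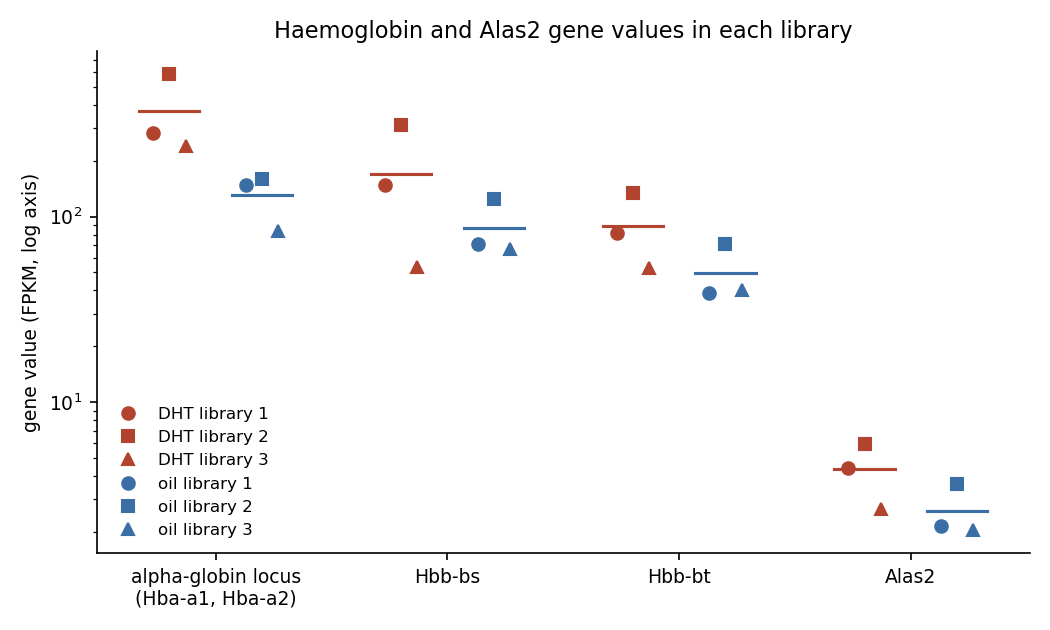
Gene values in FPKM (log axis) of the alpha-globin locus, Hbb-bs, Hbb-bt and Alas2, one point per library and a bar at the group mean, DHT in red and oil in blue. DHT library 2 is the highest point for each gene, and the groups are apart for the alpha-globin locus alone, at 238 to 589 FPKM in the DHT libraries against 84.0 to 159 FPKM in the oil libraries.

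Summed over the globin genes, haemoglobin reached 510, 1034 and 344 FPKM in the DHT libraries against 258, 354 and 191 FPKM in the oil libraries. That was 0.537%, 1.08% and 0.360% of all gene FPKM in the DHT libraries against 0.288%, 0.406% and 0.219% in the oil libraries. DHT library 3 lay below oil library 2, so the sums overlapped. The log2 difference was 1.13 over all libraries and 0.69 without DHT library 2.

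Hbb-bt and Alas2 kept their proportion most closely. Hbb-bt over Alas2 was 18.3, 22.5 and 19.9 in DHT libraries and 18.0, 19.6 and 19.7 in the oil libraries, a 1.25-fold range, while Hbb-bt itself had a 3.46-fold range and Alas2 a 2.91-fold range. Hbb-bs over Hbb-bt was 1.81, 2.33 and 1.01 in DHT libraries and 1.84, 1.75 and 1.66 in the oil libraries. DHT library 3 stood apart there, with less Hbb-bs for its Hbb-bt than any other library. Alpha over summed beta was 1.23, 1.32 and 2.25 in DHT libraries and 1.35, 0.818 and 0.787 in the oil libraries.

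Replicates of the same group differed more in these genes than in most. The within-group SD of log2(FPKM + 0.5) was 0.61 for the alpha-globin locus, 0.97 for Hbb-bs, 0.58 for Hbb-bt and 0.46 for Alas2, against a median of 0.20 over the 11368 genes tested. The SDs of these 4 genes exceeded those of 95.9%, 98.8%, 95.5% and 91.1% of the tested genes.

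Genes beside them on the chromosome had smaller differences between the groups, which were not tested against those of the members. RefSeq genes within 100 kb of the 2 alpha-globin genes included 5 tested genes, among them Nprl3, a regulator of the mTORC1 pathway whose introns hold alpha-globin enhancers, and Mpg, which encodes a DNA repair glycosylase. Nprl3 was at 1.93, 2.64 and 2.88 FPKM in the DHT libraries against 2.56, 2.35 and 2.20 FPKM in the oil libraries. The 5 log2 differences ran from 0.01 to 0.15. Near Alas2, Apex2 and Tro were tested, with log2 differences of 0.06 and 0.01. limma, a linear model with a shared variance estimate, called none of these 7 at an adjusted p of 0.05, and none had an unadjusted p under 0.05 (lowest adjusted p = 0.811). Over all 11368 genes it called 2 (0.0176%), and 834 had an unadjusted p under 0.05 (7.34%). The called genes, named after their values were seen, were Nup98, of the nuclear pore, with a log2 difference of -2.00 (limma adjusted p = 0.0163), and Gm22543, with 1.78 (limma adjusted p = 0.0380). All 13 genes listed within 100 kb of the beta-globin genes, olfactory receptors and other beta-type globins, were at 0 in every library.

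**Figure D2:**
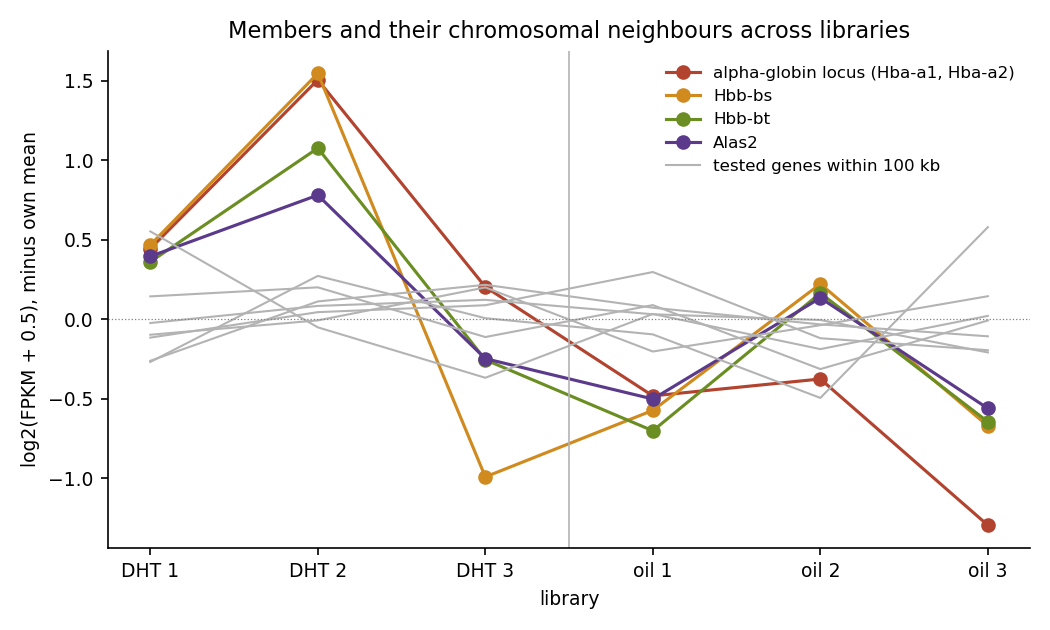
Each library's log2(FPKM + 0.5) minus the mean of that gene over the 6 libraries, DHT left of oil, with lines joining the values of a gene. The globins and Alas2 are highest in DHT library 2 and below their own means in oil libraries 1 and 3, while the 7 tested genes within 100 kb (grey) lie below all 4 in DHT library 2.

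The alpha-globin locus was assembled as 1 locus across both copies and carried the Hba-a2 identifier throughout, so its value is that of Hba-a1 and Hba-a2 together. Its main first exons lay at chr11:32283511-32283801, at the start of Hba-a1 (RefSeq 32283672 to 32284486), and at chr11:32296489-32296618, at the start of Hba-a2 (RefSeq 32296492 to 32297310). At the Hba-a1 position the event held 274, 301 and 113.5 FPKM in the DHT libraries against 68.6, 158 and 83.3 FPKM in the oil libraries, and there the groups overlapped. At the Hba-a2 position it held 7.79, 287 and 125 FPKM in the DHT libraries against 79.3, 1.38 and 0.550 FPKM in the oil libraries. The share of alpha first-exon FPKM placed at Hba-a2 was 2.79%, 48.8% and 52.4% in DHT libraries and 53.6%, 0.905% and 0.714% in the oil libraries. DHT libraries 2 and 3 and oil library 1 thus had about equal parts at both copies, and DHT library 1 and oil libraries 2 and 3 had nearly all at Hba-a1. How reads shared by near-identical copies were assigned is not stated in the labels, so this split is uncertain.

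The last-exon event of the locus, at chr11:32297193-32297298 in Hba-a2, held 172, 258 and 42.8 FPKM in DHT libraries and was listed at 0 in all 3 oil libraries. The same values, library by library, were given to a splicing event that joins 32284375 in Hba-a1 to 32297193 in Hba-a2, a span of 12.8 kb from 1 copy to the other. A second pair of junction models, also running from Hba-a1 into Hba-a2, held 157 FPKM in oil library 2, 82.9 FPKM in oil library 3 and 0 in the remaining libraries. Oil library 1 had 0 in all of them, beside 148 FPKM in its first exons. Since a value of 0 can be a failed estimate, the last-exon difference is given as listed and no fold is drawn from it.

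The beta-globin genes also had unequal ends, in opposite directions. For Hbb-bs the last exon, chr7:103826534-103826793, gave the gene value, while the listed first exon, chr7:103828012-103828096, lay 83 bases beyond the RefSeq start (103827928 on the minus strand) and overlapped the promoter window shown above. That first exon held 1.09, 3.16 and 0.362 FPKM in the DHT libraries against 0.192, 52.9 and 27.2 FPKM in the oil libraries. Oil libraries 2 and 3 stood apart from the other 4, and on first exons alone the log2 difference of Hbb-bs turned to -2.56. For Hbb-bt the first exon, chr7:103813778-103813996, gave the gene value, and its listed last exon, chr7:103727197-103727236, lay 85.3 kb past the RefSeq end, among olfactory receptor genes. It held 70.0 FPKM in DHT library 2 and was listed at 0 elsewhere.

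Alas2 had equal ends as listed. Its first-exon and last-exon sums were equal in every library, at 5.94 FPKM for both in DHT library 2 and 2.04 FPKM for both in oil library 3. The forms of its alternative internal exon likewise added up to its main first exon in every library. Its event values thus appear to be sums over the same assembled transcripts, so the equal ends are not a separate measurement of coverage. How the listed ends of the globin genes came to differ was not tested. For Hbb-bs, whose ends were above 0 in all libraries, the log2 ratio of first to last exons (each with 0.5 FPKM added) varied across the 6 libraries by 5.47, against a median of 0.48 over all 11368 genes. No such range is given for the alpha-globin locus and Hbb-bt, because their last exons were listed at 0 in 3 and 5 of the 6 libraries. Summed over the globin genes the log2 ratio averaged 0.66 ± 0.81 in DHT libraries and 1.25 ± 0.12 in the oil libraries (SD, n = 3 each), where the last-exon sum of the oil libraries is that of Hbb-bs alone.

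**Figure D3:**
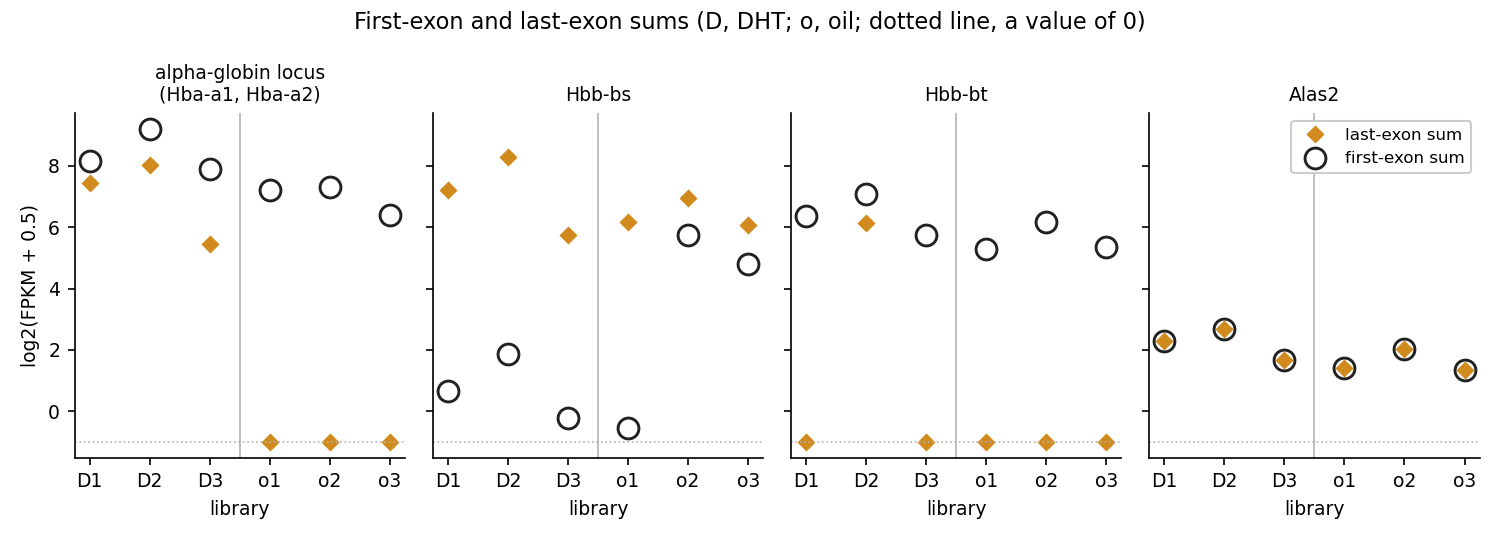
First-exon (open circles) and last-exon (diamonds) sums on the scale of log2(FPKM + 0.5) in each library, DHT (D) left of oil (o), with a dotted line at a value of 0. The alpha-globin last exon is at 0 in the oil libraries and the Hbb-bt last exon is at 0 in all libraries but DHT library 2. The ends of Alas2 coincide in all 6 libraries, where its event values appear to be sums over the same assembled transcripts.

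Alas2 was the member with an alternative internal exon, a readout the choice of members did not use. The exon ended at chrX:150553081 and began at 150552959 in the longer form or 150553004 in the form that is 45 bases shorter. The shorter form took 23.8%, 30.3% and 29.3% of the exon's FPKM in the DHT libraries against 30.6%, 42.8% and 21.9% in the oil libraries, with overlap. The means were 27.8 ± 3.51% and 31.8 ± 10.5% (DHT and oil, SD, n = 3 each), and a difference was not detectable at this number of libraries (exact permutation test, two-sided, p = 0.7, where 0.1 is the smallest possible). The longer form was the more abundant in all 6 libraries. The files give no read counts for these events, so their counting error is unknown.

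No circular RNA came from any member. Among the 11895 distinct circular RNAs listed over the 6 libraries, 0 had a member as host and 0 overlapped a member gene. The lists hold circles of at least 2 junction reads, so a single read would not be seen.

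No other globin was called. The embryonic genes Hba-x, Hbb-y and Hbb-bh1 were listed at 0 in every library, and Hbq1a did not exceed 0.271 FPKM. Cytoglobin, Cygb, which is made in fibroblast-like cells and some neurons, was at 7.43 ± 0.884 FPKM in the DHT libraries against 6.47 ± 0.858 FPKM in the oil libraries (SD, n = 3 each). Neuroglobin, Ngb, was at 0.640 ± 0.294 and 0.648 ± 0.188 FPKM in DHT and oil libraries. Neither passed limma's test (adjusted p = 0.750 and 0.982 for Cygb and Ngb), and the unadjusted p of both was above 0.05.

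Genes that define red cells and their precursors were mostly near 0. Of 23 listed genes of the red cell membrane and cytosol that had an identifier, 8 were at 0 in every library, among them the blood group genes Rhag, Rhd and Kel, and 14 were under a mean of 0.5 FPKM. The band 3 anion exchanger gene, Slc4a1, was at 0.441, 0.437 and 0 FPKM in the DHT libraries against 0, 0.275 and 0.557 FPKM in the oil libraries. The erythroid transcription factor genes Gata1, Klf1 and Gfi1b were listed at 0 throughout. Of the erythroid genes measured, those well above 0 were thus the globins, Alas2 and genes with wider use.

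The 9 members of the red cell list that could be tested included beta-spectrin (Sptb), ankyrin (Ank1), Bnip3l, Xpo7, Bpgm, Fech, Slc14a1 and Isg20. None passed limma's test over all genes, and 1 had an unadjusted p under 0.05, Sptb at 13.5 ± 0.888 FPKM in the DHT libraries against 11.2 ± 0.272 FPKM in the oil libraries (SD, n = 3 each; log2 difference 0.25, SE 0.10, limma adjusted p = 0.658). Of the 9, 7 had the higher mean in DHT libraries, 6 with libraries centred, with a median log2 difference of 0.13, against 0.07 over all genes. Bpgm, which makes the effector that lowers the oxygen affinity of haemoglobin, was at 6.01 ± 1.62 FPKM in the DHT libraries against 5.53 ± 1.41 FPKM in the oil libraries. Ank1 was at 10.5 ± 0.921 and 10.3 ± 0.313 FPKM in DHT and oil libraries, and the mitophagy receptor gene Bnip3l at 9.29 ± 0.316 and 9.35 ± 0.118 FPKM. Xpo7 was at 6.18 ± 0.935 and 6.74 ± 2.44 FPKM, and the urea transporter gene Slc14a1 at 0.800 ± 0.338 and 0.590 ± 0.244 FPKM. Isg20 was at 0.590, 1.36 and 0.321 FPKM in the DHT libraries against 0.115, 0.588 and 0.316 FPKM in the oil libraries, with overlap.

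Of 6 tested transcription factor and erythropoietin pathway genes, 4 had the higher mean in DHT libraries (3 with libraries centred) and 2 the lower, with none called. Zbtb7a and Bcl11a, which silence fetal-type globin genes in erythroid cells and act in neurons as well, had means that lay on opposite sides. Zbtb7a was at 16.5 ± 0.671 FPKM in the DHT libraries against 13.7 ± 1.46 FPKM in the oil libraries, and Bcl11a at 9.11 ± 2.47 and 10.6 ± 1.36 FPKM. Ldb1, a cofactor of erythroid enhancer loops, was at 14.2 ± 0.684 and 14.3 ± 0.915 FPKM in DHT and oil libraries. Lmo2, a bridging factor of the same loops, was at 3.83 ± 0.716 and 3.81 ± 0.571 FPKM, and the erythropoietin receptor gene Epor at 1.47 ± 0.108 and 1.35 ± 0.102 FPKM. Sox6, a silencer of embryonic globin in mouse, was the 1 gene of the list with an unadjusted p under 0.05, at 3.46 ± 0.328 FPKM in the DHT libraries against 2.65 ± 0.285 FPKM in the oil libraries (log2 difference 0.33, limma adjusted p = 0.658). With its largest single event as the gene value, the log2 difference of Sox6 turned to -0.067 (limma adjusted p = 0.937).

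General haem synthesis genes were split in direction. All 12 measured genes of that list were tested, 5 with the higher (4 with libraries centred) and 7 with the lower mean in DHT libraries, with a median log2 difference of -0.03. limma called none, and none had an unadjusted p under 0.05. Alas1, the form of the enzyme that serves most tissues, was at 5.70 ± 0.997 FPKM in the DHT libraries against 5.72 ± 1.36 FPKM in the oil libraries (SD, n = 3 each). Cpox, the coproporphyrinogen oxidase, was at 4.87 ± 0.110 and 5.01 ± 0.309 FPKM, and the mitochondrial carrier Slc25a39 at 7.94 ± 0.779 and 9.36 ± 1.29 FPKM (DHT and oil libraries). Fech, which places iron into haem at the last step, was at 4.22 ± 1.99 FPKM in the DHT libraries against 3.62 ± 0.528 FPKM in the oil libraries.

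Among 13 tested genes of haem and iron handling, 7 had the higher mean in DHT libraries (6 with libraries centred) and 6 the lower, and none was called. The ferritin heavy chain gene Fth1, whose product stores iron, had the highest level of the list, at 320, 281 and 322 FPKM in the DHT libraries against 232, 259 and 194 FPKM in the oil libraries. The groups did not overlap, but the limma adjusted p was 0.652 (log2 difference 0.44, SE 0.13, unadjusted p = 0.0121). The light chain gene Ftl1 was at 33.6 ± 3.26 FPKM in the DHT libraries against 27.0 ± 4.16 FPKM in the oil libraries. Lrp1, a receptor that among other ligands takes up haem bound to haemopexin, was at 36.5 ± 3.50 and 35.2 ± 3.71 FPKM. The haem oxygenase gene Hmox1, which is induced by free haem, was at 0.791, 1.14 and 0.890 FPKM in the DHT libraries against 0.944, 0.686 and 1.27 FPKM in the oil libraries, with overlap.

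**Figure D4:**
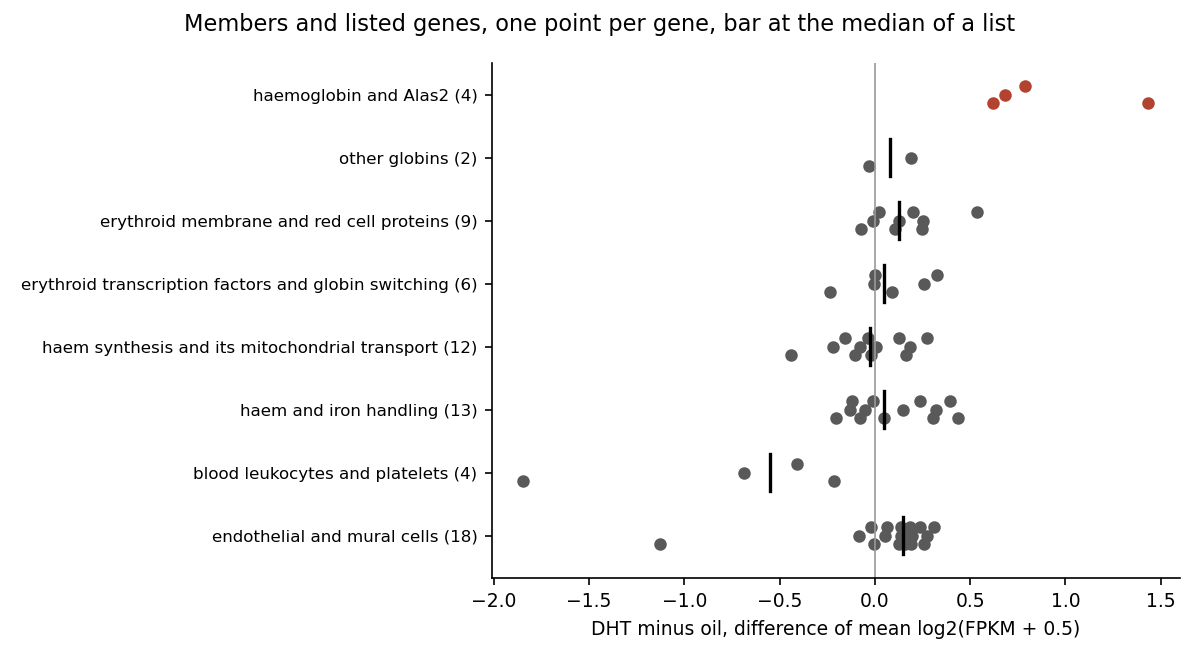
Difference of mean log2(FPKM + 0.5), DHT minus oil, one point per tested gene, with a bar at the median of each list and the number of tested genes in brackets. The 4 measured members (red) lie between 0.62 and 1.44, and the medians of the lists drawn lie between -0.55 for blood leukocytes and platelets and 0.15 for endothelial and mural cells. The leukocyte and platelet median rests on high values of S100a8, S100a9 and Retnlg in a single oil library.

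Markers of other blood cells were low. Of 23 leukocyte and platelet genes with an identifier, 5 were at 0 in every library, including Mpo, and 19 were under a mean of 0.5 FPKM. The summed level of the list was 2.68 to 7.30 FPKM in the DHT libraries against 4.95 to 26.8 FPKM in the oil libraries. The neutrophil genes S100a8 and S100a9 were highest in oil library 3, the library with the lowest haemoglobin sum. S100a8 was at 0.624, 0.285 and 0.570 FPKM in the DHT libraries against 0.546, 0.182 and 5.02 FPKM in the oil libraries. S100a9 was at 1.43, 0.532 and 0.360 FPKM in the DHT libraries against 0.244, 0 and 6.70 FPKM in the oil libraries. Igkc, an antibody light chain gene of plasma cells, was at 3.82, 1.37 and 0.237 FPKM in the DHT libraries against 2.93, 8.83 and 8.14 FPKM in the oil libraries (limma adjusted p = 0.658, unadjusted p = 0.0294). All 4 tested genes of this list had the lower mean in DHT libraries, with none called. For S100a8, S100a9 and Retnlg, another neutrophil gene, that direction rested on oil library 3 alone. Retnlg was at 0.426, 0.228 and 0.147 FPKM in the DHT libraries against 0.200, 0 and 2.42 FPKM in the oil libraries.

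The summed level of vessel wall genes overlapped between the groups. The 19 endothelial and mural genes with an identifier summed to 63.7 to 65.0 FPKM in the DHT libraries against 58.3 to 70.5 FPKM in the oil libraries. Of 18 tested, 14 had the higher mean in DHT libraries (13 with libraries centred), against 63.6% of all genes tested (51.4% centred). Their median log2 difference was 0.15, and none was called. All DHT libraries lay above all oil libraries in 5 of the 18, Vtn among them, against 12% of all genes tested. All DHT libraries lay below all oil libraries in 0 of the 18. The share of all tested genes with that pattern was not computed, so nothing is read from this count. Ly6c1 was at 12.8 ± 1.22 and 11.97 ± 5.98 FPKM, the pericyte gene Rgs5 at 9.65 ± 0.446 and 9.44 ± 2.29 FPKM, and Vtn at 8.76 ± 0.129 and 7.81 ± 0.817 FPKM (DHT and oil libraries, SD, n = 3 each). Slc2a1, the glucose transporter of the blood-brain barrier, was at 2.61, 1.75 and 1.48 FPKM in the DHT libraries against 6.60, 6.65 and 2.35 FPKM in the oil libraries (limma adjusted p = 0.656, unadjusted p = 0.0215).

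Choroid plexus markers varied by library too. Transthyretin, Ttr, the most abundant of them, was at 0.131, 0.385 and 29.2 FPKM in the DHT libraries against 76.4, 12.4 and 1.78 FPKM in the oil libraries. The libraries highest in haemoglobin, DHT 1 and DHT 2, were those lowest in Ttr, but oil library 3, the lowest in haemoglobin, came next. The list's 8 genes with an identifier summed to 1.29 to 31.7 FPKM in the DHT libraries against 3.89 to 81.4 FPKM in the oil libraries. Clic6, the other choroid gene tested, did not pass (limma adjusted p = 0.724, log2 difference -0.34).

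Of the brain cell lists, none had a called gene. The microglial gene Csf1r was at 9.03 ± 0.587 FPKM in the DHT libraries against 8.80 ± 1.99 FPKM in the oil libraries (SD, n = 3 each), and P2ry12 at 4.13 ± 1.22 and 3.71 ± 0.0932 FPKM. The astrocyte transporter gene Slc1a2 was at 163 ± 6.24 and 158 ± 5.21 FPKM, and the myelin gene Mbp at 277 ± 33.0 and 228 ± 42.0 FPKM (DHT and oil libraries). Snap25, of the synapse, was at 150.1, 376 and 375 FPKM in the DHT libraries against 295, 348 and 310 FPKM in the oil libraries, with DHT library 1 the lowest. Slc17a7, the vesicular transporter gene of glutamatergic neurons, lay the other way, at 66.5, 51.4 and 90.5 FPKM in the DHT libraries against 35.7, 42.2 and 55.2 FPKM in the oil libraries, with overlap (log2 difference 0.63, SE 0.24, limma adjusted p = 0.658, unadjusted p = 0.0356). What leukocyte, vessel, choroid plexus and other cells' RNA contributed to the haemoglobin values was not tested.

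Over all 14 lists 102 distinct genes were tested, and 0 were called by limma at an adjusted p of 0.05, with 7 at an unadjusted p under 0.05 (lowest adjusted p = 0.652). In these lists, higher and lower refer to mean log2(FPKM + 0.5).

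The genes whose course over the 6 libraries was nearest to that of haemoglobin were ranked by the root mean square difference of centred log2 values. Alas2 had a distance of 0.28 from the mean course of the 3 globin genes with events, less than any tested gene outside the members. Next came Dcun1d1, which encodes a factor for cullin neddylation, at 0.29, with 4.46, 10.7 and 3.73 FPKM in the DHT libraries against 3.65, 6.06 and 2.53 FPKM in the oil libraries. Then followed Isg20 (0.34), an interferon-induced exonuclease gene, Lypla2 (0.34), Rgs20 (0.35), Tom1l2 (0.35), Prr13 (0.36), Ube2l6 (0.37), which encodes a conjugating enzyme for ISG15, and Dpm3 (0.37). The median distance over all tested genes was 0.75. The globin course was made from the same libraries, so these distances describe likeness in 6 libraries and carry no test.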

How the data were processed

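Per the file headers, the authors deposited FPKM of single events, each the first exon, the last exon or a splice choice of an assembled transcript locus. They deposited circular RNA lists with junction read counts, linear read counts and a score, SRPBM (junction reads scaled to mapped reads), per the labels' protocols. The submitters' processing notes list HISAT2 2.0.1, BWA, cutadapt and bcl2fastq 2.17.1.14 without roles, and mm9. No assembler is named there. Of 63752 first-exon events of genes in the RefSeq table, 87.0% overlapped the GRCm38 bounds of that gene. Of the 18 member events, 16 overlapped the bounds of a member, Hba-a1 included, so coordinates are read as GRCm38.

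Gene values were taken per locus and added over loci of 1 identifier (99.7% of 32348 identifiers matched a symbol). The 11368 genes averaging 0.5 FPKM or more were fitted on log2(FPKM + 0.5) with limma 3.58.1 (R 4.3.3, variance trend), DHT against oil, over all 6 libraries, with Benjamini-Hochberg adjustment over all of them and a threshold of 0.05. Such fold changes understate those of low genes, and the depth behind each FPKM is unknown. On data simulated for this comparison over 11368 genes, limma recovered 18 of 67 genes changed 1.5-fold, 40 of 67 changed 2-fold and 59 of 66 changed 3-fold. Of its 127 calls there, 10 were of unchanged genes. The simulation took each gene's observed spread as its true spread, so recovery in the real libraries may be lower. Single values used exact permutation tests. Since no label ties a library to 1 animal, the p-values refer to library spread, part of which may be technical. Python 3.11.15, pandas 2.3.3, scipy 1.17.1 and matplotlib 3.10.9 were used.

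The members and the gene lists were chosen with earlier results of these data known. The rule named the 3 genes of highest mean in each list and any called, all tested genes of the 2 erythroid lists, and the 8 genes nearest in course to haemoglobin, of which the examples that matter are given. Other genes were named after their values were seen. Some genes of the lists are not reported here. The alternatives were other pseudocounts, filters, scaling and gene values, and leaving out each library.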

Additional observations from a re-analysis of the deposited data

How the results depend on the processing

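The haemoglobin difference (log2, DHT minus oil) was 0.69 to 1.48 on leaving out 1 library and 0.92 with the largest single event, and it kept its sign under each alternative that gave a fold. Differences of the single members ran, on leaving out 1 library, from 1.04 to 1.69 for the alpha-globin locus, 0.08 to 1.35 for Hbb-bs, 0.45 to 1.11 for Hbb-bt and 0.38 to 0.90 for Alas2. With last-exon sums only, no fold is given for haemoglobin, the alpha-globin locus or Hbb-bt, because the alpha-globin locus and Hbb-bt are listed at 0 in the oil libraries. The first-over-last log2 ratio of haemoglobin was 0.95 over all libraries and 0.83 to 1.11 without 1 of them, and it rests in part on those zeros. The 2 calls over all genes became 1 with a pseudocount of 0.1 or a mean of at least 1 FPKM, 0 when gene values came from first exons alone, from last exons alone or from the largest single event, and 0 to 4 on leaving out 1 library (0 without DHT 1, DHT 3, oil 1 or oil 2, 3 without oil 3 and 4 without DHT 2). Of the listed genes 0 were called under each alternative, and the log2 difference of Sox6 turned to -0.067 with the largest single event; the cause was not tested. No paired analysis was possible because the labels give the groups no replicate numbers in common (the library numbers used here follow accession order and pair nothing). With 3 libraries a group, no exact test of a single value can go below 0.1.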
